A study of Mus musculus with 81 samples.

Results

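BXD65, BXD92a and BXD97 are recombinant inbred mouse lines of the BXD family, bred from a cross of C57BL/6J and DBA/2J mice so that each line is homozygous for one parent's allele at nearly every locus. They were chosen because their liver profiles on these arrays were alike, so 5 of the 81 arrays of the series belong to them. BXD65 and BXD97 each gave 1 high-fat and 1 chow array, and BXD92a gave 1 chow array. They were set against the 76 arrays of the 39 other strains, 38 high-fat and 38 chow, which include both parents C57BL/6J and DBA/2J. Every mouse was male, was fasted overnight and was killed at 29 weeks of age, after a high-fat diet begun at 8 weeks or after chow for life. No transgene or targeted allele is named in the labels, and the strains differ by the parental alleles they inherited. An array holds RNA pooled evenly from about 5 animals, so the spread between animals is not seen and a strain has 1 measurement on a diet. Values are scores scaled so that the probe sets of each array average 8 with a standard deviation of 2, on a scale whose log base, if any, is not stated, and differences are therefore given in score units without folds.

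Hepatocytes store triglyceride in lipid droplets, whose coat proteins decide how fast the droplets grow and how fast their fat is released. The CIDE proteins sit where droplets touch and pass lipid from the smaller to the larger; Cidea is best known from brown fat and Cidec from white fat, and both rise in fatty liver. The nuclear receptor Pparg drives many such genes in fat cells. In a bulk array a gene can be low because fewer cells of a type were present or because each cell held less of its RNA, and these cannot be told apart.

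The likeness of the 3 strains was first described at genes that differ between the parents; their levels come from the arrays on which the strains were picked, so the shares are given without a test. The parents differed in 147 genes by at least 1 score unit in limma's test of C57BL/6J minus DBA/2J (adjusted p under 0.05). Each strain was placed on the side of the nearer parent for each of these genes. BXD65 and BXD92a lay on the same side in 137 of the 147 genes, which is 93.2%. The pair BXD92a and BXD97 shared a side in 127 genes, 86.4%, and the pair BXD65 and BXD97 in 123 genes, 83.7%. Leaving out these pairs and those among BXD73, BXD80 and BXD103, another set of alike strains, for the 774 other pairs of BXD strains the share ran from 40.1% to 82.3% with a median of 57.8%, and no other strain shared more than 70.7% with any of the 3. All 3 strains stood together in 120 genes, 90 of them on the C57BL/6J side and 30 on the DBA/2J side. BXD97 was the odd one in 17 genes, BXD65 in 7 and BXD92a in 3. The 147 genes include pancreatic genes such as Cpa1 and Cela3b, and the DBA/2J chow array holds acinar transcripts. Without it and the BXD63 high-fat array, an alternative chosen after seeing the data, 121 genes passed, and the shares were 90.1% for BXD65 with BXD92a, 87.6% for BXD65 with BXD97 and 86.0% for BXD92a with BXD97. The other pairs then ran from 36.4% to 86.8%, so the highest of them lay above the pair BXD92a and BXD97. On chromosome 9, over the 147 genes, the 3 strains stood together in only 2 of 6 such genes, and BXD97 was apart in 3.

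The likeness over all genes was uneven. After the mean of each diet was removed, the chow arrays of BXD65 and BXD92a correlated at 0.47 over 21765 genes, against 0.44 between the high-fat and chow arrays of BXD65. BXD97 correlated with BXD65 and BXD92a at 0.16 to 0.29. Its chow array was closer to the high-fat array of BXD85, at 0.38, and its high-fat array was closer to the high-fat array of BXD96, at 0.38, than to any array of BXD65 or BXD92a. Other pairs of arrays from different strains had a median of -0.02, with 95% of them below 0.19. BXD97 thus matched the other 2 in the side it took at genes the parents differ in, and less in its profile as a whole. These correlations are over genes of single arrays and describe those arrays.

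**Figure D1:**
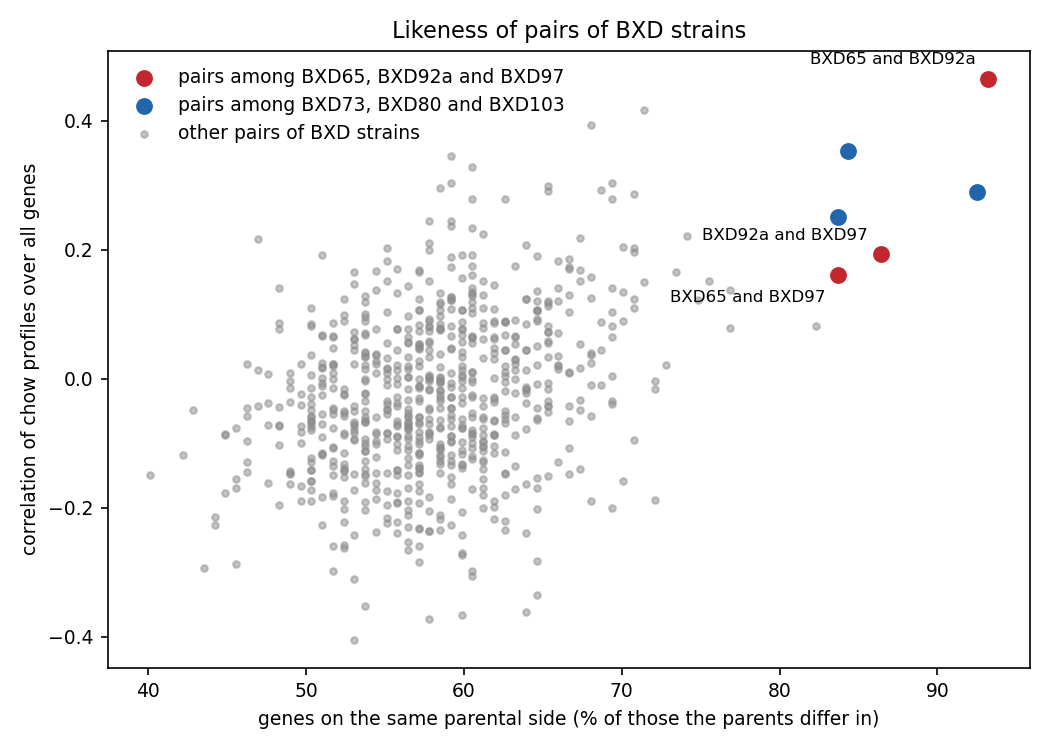
Each point is a pair of BXD strains; the horizontal axis gives the percentage of the 147 parental genes at which both lie nearer the same parent, and the vertical axis the correlation of their chow profiles over all genes after the diet mean was removed. The 3 pairs among BXD65, BXD92a and BXD97 lie at 83.7% to 93.2% on the horizontal axis, and only BXD65 with BXD92a, at 0.47, stands above the other pairs on the vertical one.

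Marker genes of hepatocytes, macrophages, B cells, T cells, pancreatic acinar cells, skeletal muscle and erythroid cells held no member that differed by at least 0.5 units in the same direction on all 5 arrays. Hepatocyte markers, 10 of 10 measured, averaged 14.75 to 14.85 on the 5 arrays and 14.69 to 14.999 on the other arrays. Pancreatic acinar markers, which reached a mean of 9.14 on 1 of the 2 arrays of other strains that hold acinar transcripts (DBA/2J on chow and BXD63 on the high-fat diet), averaged 6.89 to 7.17 on the 5 arrays. Erythroid markers averaged up to 9.56 on the 5 arrays, on the BXD97 high-fat array, and up to 9.42 on those of the other strains. Probe sets that the annotation calls negative controls had a median level of 6.69 over the 81 arrays, and their 90th percentile was 8.76.

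A gene was counted as shared when all 5 arrays, each minus the mean of the other strains' arrays on its diet, lay on one side of 0 and the fitted difference was at least 0.5 units. By this rule 241 of 21765 genes were shared (1.11%), 182 higher (0.836%) and 59 lower (0.271%) in the 3 strains. Most of these levels were common in the family: a median of 13 of the 39 other strains had an array that reached the least extreme of the 5. Only 3 genes (0.0138%) were exclusive, with no other array reaching that far, and 20 were rare, reached by 1 to 4 other strains; together they are 0.106% of all genes. Of the exclusive genes 3 were higher and 0 lower, and of the rare genes 19 were higher and 1 lower. Since the strains were chosen on these arrays, the counts and differences describe them and were not tested.

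Cidea, the lipid droplet protein, had the largest difference of the 3 exclusive genes. Its levels were 11.43 in BXD65 and 11.28 in BXD97 on the high-fat diet, and 10.90 in BXD65, 10.98 in BXD92a and 10.14 in BXD97 on chow. The other strains lay between 7.05 and 10.42 (median 7.68) on the high-fat diet and between 6.14 and 9.25 (median 6.62) on chow. Every array of the 3 strains was above every other array of its diet, and on chow the other strains' median was below the median of the negative controls. The fitted difference was 3.67 ± 0.39 units (SE, 5 against 76 arrays), and the gap from the least extreme of the 5 to the most extreme other array, both diet-adjusted, was 0.65. The nearest array on chow was that of BXD44, at 9.25, and on the high-fat diet those of BXD96, BXD81 and BXD98 lay at 10.42, 10.41 and 10.33. Those 3 high-fat arrays were above the 10.14 of the BXD97 chow array, so the groups are apart within a diet and not across diets. Both parents were low, with 8.04 and 6.50 in C57BL/6J, against 7.32 and 6.41 in DBA/2J on the high-fat diet and chow in that order (C57BL/6J minus DBA/2J 0.40 ± 0.72, limma adjusted p = 0.862 in limma).

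B430212C06Rik, a long non-coding RNA on chromosome 18, was the exclusive gene with the widest gap. In RefSeq (GRCm38.p6) its range overlaps Cidea's range by 540 bases, so signal of the pair may not be separable. Its levels were 8.53 in BXD65 and 7.97 in BXD97 on the high-fat diet, and 8.10 in BXD65, 8.44 in BXD92a and 7.83 in BXD97 on chow. In the other strains they lay between 5.95 and 7.24 (median 6.39) on the high-fat diet and between 5.86 and 6.97 (median 6.21) on chow. The groups did not overlap, with a diet-adjusted gap of 0.71 units, and the difference was 1.87 ± 0.16 units. The other strains' levels were under the negative-control median of 6.69 at both medians, and the 5 arrays' levels were still under the 90th percentile of those controls. Tubb6, a tubulin gene and the next measured gene on the far side of Cidea, was shared as well, at 8.72 to 9.78 on the 5 arrays against medians of 8.67 on the high-fat diet and 8.45 on chow, and was reached by 15 other strains (0.60 ± 0.14 units).

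Arsb, the lysosomal sulfatase that degrades dermatan and chondroitin sulfate, was the third exclusive gene, by a small margin. It stood at 11.14 in BXD65 and 11.07 in BXD97 on the high-fat diet, and 11.16 in BXD65, 10.96 in BXD92a and 11.03 in BXD97 on chow. In the other strains it lay between 9.85 and 10.98 (median 10.63) on the high-fat diet and between 9.58 and 10.88 (median 10.51) on chow. Its diet-adjusted gap was 0.06 units and its difference 0.60 ± 0.15 units. It alone of the 23 exclusive and rare genes passed the parental test, with 10.88 and 10.73 in C57BL/6J, against 9.85 and 9.79 in DBA/2J on the high-fat diet and chow in that order (C57BL/6J minus DBA/2J 0.98 ± 0.12, limma adjusted p = 2.3e-07). The 3 strains therefore lay on the C57BL/6J side and slightly beyond that parent. The closest gene outside the exclusive set, Spatc1, overlapped by 0.09 units.

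**Figure D2:**
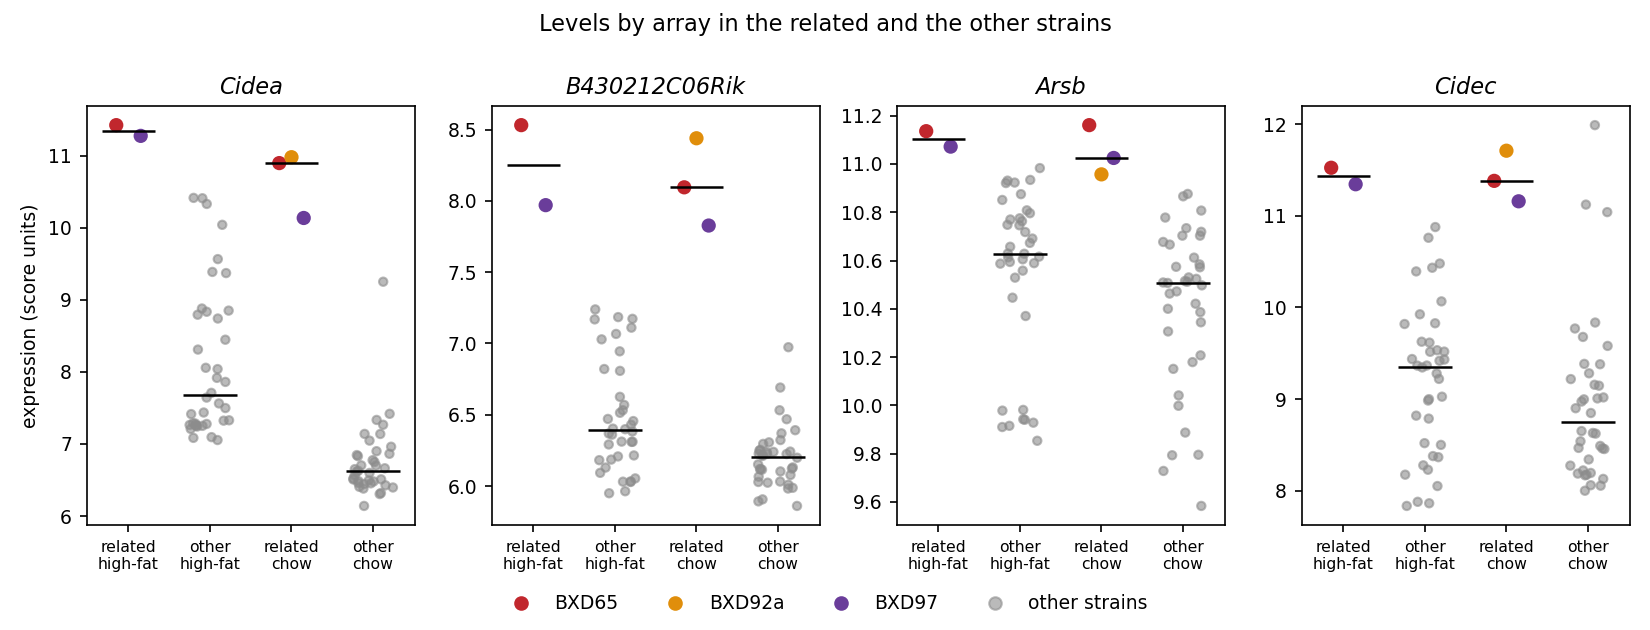
Points are arrays, in score units, with the 5 arrays of BXD65, BXD92a and BXD97 left of the other strains' arrays within each diet and a line at each median; the vertical axes do not start at 0. The 3 strains stand clear of all other arrays of their diet for Cidea and B430212C06Rik and just clear for Arsb, while 1 other chow array exceeds them for Cidec.

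Cidec, the relative of Cidea that enlarges droplets in white fat, had the largest difference of the rare genes, 2.38 ± 0.40 units. Its levels were 11.52 in BXD65 and 11.34 in BXD97 on the high-fat diet, and 11.38 in BXD65, 11.71 in BXD92a and 11.16 in BXD97 on chow. The other strains lay between 7.83 and 10.88 (median 9.36) on the high-fat diet and between 8.00 and 11.99 (median 8.75) on chow. On the high-fat diet the groups did not overlap, and on chow BXD43 stood above all 3 strains at 11.99; BXD44, diet-adjusted, also reached the least extreme of the 5. Aqp7, the glycerol channel of fat cells, stood at 9.11 in BXD65 and 8.66 in BXD97 on the high-fat diet, and 7.52 in BXD65, 7.80 in BXD92a and 8.01 in BXD97 on chow, with the other strains between 6.91 and 8.20 (median 7.38) on the high-fat diet and between 6.68 and 7.45 (median 6.99) on chow. Within each diet the groups for Aqp7 did not overlap, and only BXD98 reached the 3 strains after diet adjustment (difference 1.05 ± 0.12 units). All Aqp7 levels except that of BXD65 on the high-fat diet were under the 90th percentile of the negative controls, 8.76.

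S100a11, a calcium-binding protein that works with annexins, stood at 11.76 in BXD65 and 11.34 in BXD97 on the high-fat diet, and 10.57 in BXD65, 10.75 in BXD92a and 11.21 in BXD97 on chow. The other strains lay between 9.07 and 11.91 (median 9.91) on the high-fat diet and between 8.75 and 12.002 (median 9.24) on chow, with BXD61 on chow the highest, and 4 other strains reached the least extreme of the 5 (difference 1.48 ± 0.29 units). Anxa5, the phospholipid-binding annexin, lay at 12.46 to 13.28 on the 5 arrays against medians of 11.89 on the high-fat diet and 11.46 on chow and was reached by BXD60, BXD61 and BXD98 (difference 1.07 ± 0.21 units). Gprc5b, an orphan receptor, lay at 8.49 to 9.00 against medians of 7.39 on the high-fat diet and 7.30 on chow and was reached by BXD44 and BXD61 only (difference 1.35 ± 0.17 units). Tceal8, an X-linked gene of the TCEAL family, differed by 1.23 ± 0.28 units and was reached by BXD44, BXD60, BXD66 and BXD96. The same few strains recurred: BXD44 reached the 3 strains in 10 of the 20 rare genes and BXD61 in 8.

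Among the remaining rare genes, Wdr67 (now Tbc1d31, a centrosomal protein) differed by 0.87 ± 0.16 units, the imprinted non-coding RNA Airn by 0.83 ± 0.13 units and Fam126a by 0.78 ± 0.16 units. 2610024B07Rik, which the annotation now places in Tead1, the transcriptional partner of YAP, differed by 0.80 ± 0.17 units, and the probe set named Tead1 by 0.76 ± 0.17 units. D14Ertd449e (now Tmem254a) was the 1 rare gene lower in the 3 strains, at 11.43 to 11.87 on the 5 arrays against medians of 12.91 on the high-fat diet and 12.79 on chow, and was reached by BXD49 and BXD96 (difference -1.11 ± 0.14 units). The other 9 rare genes, given so that the set is complete, were Mest, an imprinted gene, Spatc1, Limk1, an actin-regulating kinase, Rgs5, Prrx1, Aldh3a2, a fatty aldehyde dehydrogenase, Mbnl3, Stab2, a scavenger receptor of sinusoidal endothelium, and Rab34. Their differences ran from 0.51 units for Rab34 to 0.78 units for Mest. Stab2 is also one of the 10 endothelial markers measured, and the mean of that list, diet-adjusted and with Stab2 included, was -0.07 to 0.28 on the 5 arrays and -0.31 to 0.30 on the others. Just outside the limit of 4 strains were 10 shared genes reached by 5 other strains, among them Ctse, Anxa2, Pparg, Avpr1a and Car2.

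**Figure D3:**
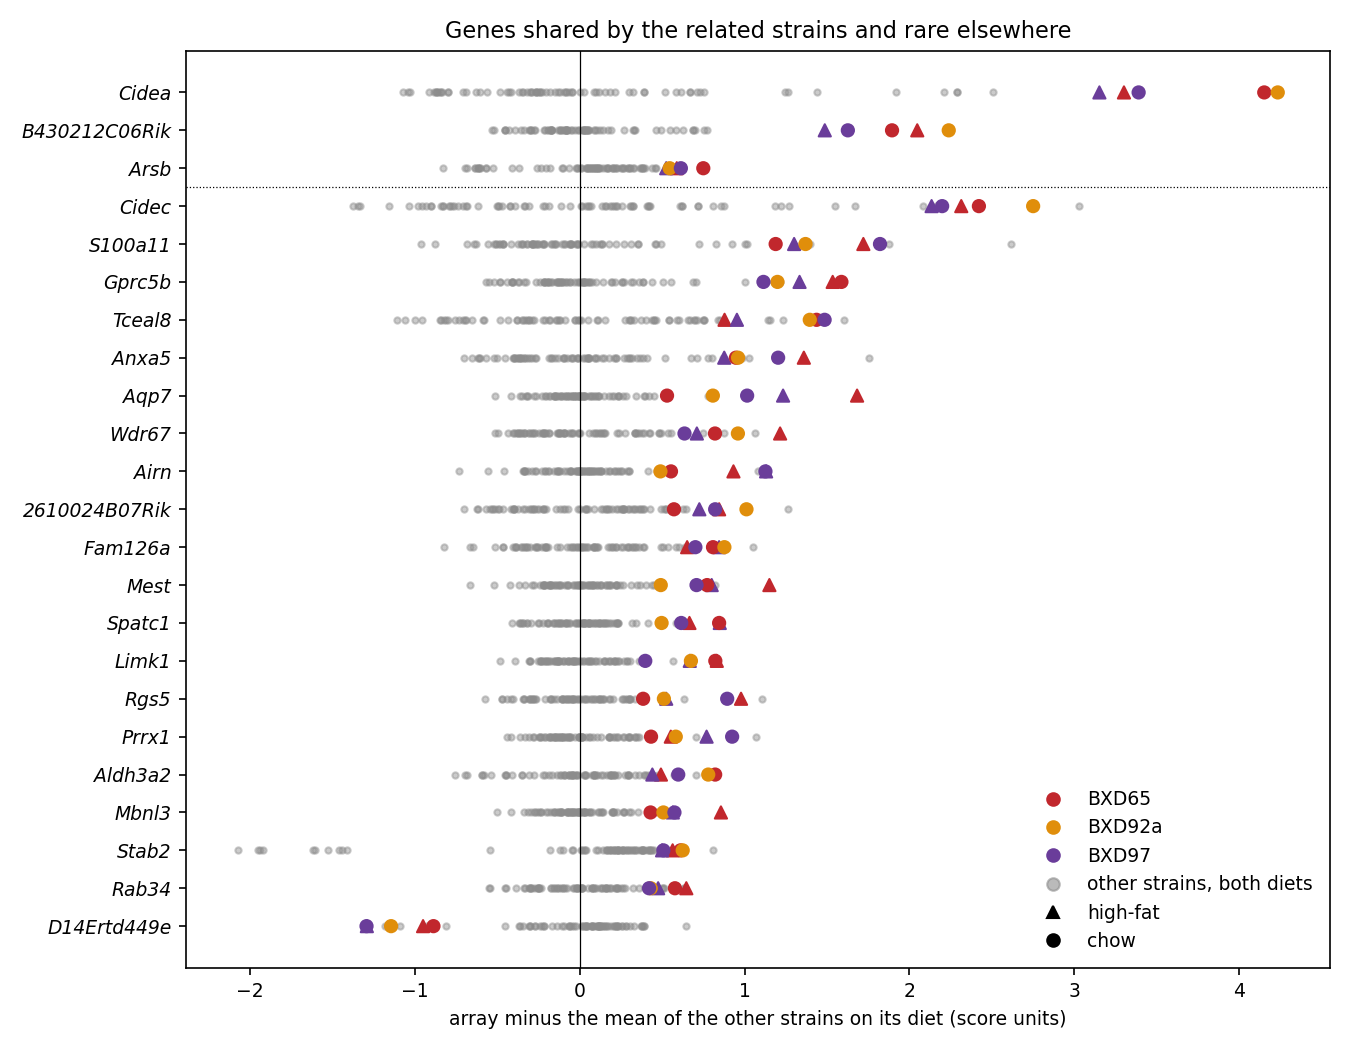
The 3 exclusive genes (above the dotted line) and 20 rare genes, with each array's level minus the mean of the other strains on its diet in score units on the horizontal axis; coloured symbols are the 5 arrays of the 3 strains and grey points the 76 others. Cidea, B430212C06Rik and Cidec lie furthest to the right, and D14Ertd449e alone lies to the left.

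Cidea and Cidec were not alone among lipid genes. Of the 20 genes on a list for lipid droplets and lipid uptake, 19 were measured and 8 were shared, every one higher in the 3 strains, beside 0.836% of all genes shared and higher. The median difference of the list was 0.34 units, against -0.015 over all genes. Mogat1, which makes diacylglycerol from monoacylglycerol, stood at 8.96 in BXD65 and 8.30 in BXD97 on the high-fat diet, and 8.20 in BXD65, 8.84 in BXD92a and 8.81 in BXD97 on chow, with the other strains between 6.05 and 8.96 (median 7.72) on the high-fat diet and between 6.05 and 8.69 (median 6.82) on chow (difference 1.43 ± 0.30 units, reached by 10 strains). The fatty acid carrier Cd36 lay at 12.31 to 12.61 on the 5 arrays against medians of 11.95 on the high-fat diet and 10.53 on chow (difference 1.39 ± 0.35 units). On the high-fat diet, where other strains also had high Cd36, their highest array was at 12.70, above both arrays of the 3 strains. Fitm1, a protein of fat storage in the endoplasmic reticulum, differed by 1.19 ± 0.24 units, the droplet coat protein Plin4 by 0.98 ± 0.26, the fat cell fatty acid carrier Fabp4 by 0.80 ± 0.16 and Pparg by 0.73 ± 0.17 units. Pparg lay at 10.54 to 11.02 on the 5 arrays against medians of 10.47 on the high-fat diet and 10.02 on chow and was reached by 5 other strains.

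Other droplet genes on the list were not shared, and those given here differed by less. At any size 18 of the 19 measured genes of the list were higher in the 3 strains. The main hepatic coat protein Plin2 differed by 0.28 ± 0.12 units, the third CIDE gene Cideb by 0.06 ± 0.06, Plin5 by 0.02 ± 0.14 and the lipase gene Pnpla2 by 0.02 ± 0.12 units. The mean of the 19 genes, diet-adjusted, was 0.59 to 0.93 on the 5 arrays and -0.58 to 0.79 on the other arrays, and only BXD44 and BXD60 reached the lowest of the 5. Without Cidea and Cidec the mean of the 17 others was 0.33 to 0.63 against -0.52 to 0.60, and 4 other strains reached it. The list of 6 adipocyte markers was mixed, with a median difference of -0.09 units. Cidec, which stands on it too, was its shared member, and Cfd, an adipokine also of the complement system, differed by 0.44 ± 0.20 units. Adipoq lay at 5.64 to 6.03 on the 5 arrays against medians of 5.89 on the high-fat diet and 5.88 on chow, Plin1 at 7.32 to 7.99 against medians of 7.73 on the high-fat diet and 7.97 on chow, Lep at 6.20 to 6.70 against medians of 6.49 on the high-fat diet and 6.58 on chow, and Retn at 7.25 to 7.74 against medians of 7.76 on the high-fat diet and 7.75 on chow. The 6 genes, Cidec included, averaged 7.86 to 8.03 on the 5 arrays and 7.22 to 8.01 on the others. Without Cidec the mean of the list, diet-adjusted, was -0.07 to 0.04 on the 5 arrays and -0.31 to 0.28 on the others. By that mean 34 other strains reached the lowest of the 5 arrays. Any part of fat tissue in the lipid gene levels was not tested. Fatty acid and triglyceride synthesis genes, 22 measured, held 3 shared genes, each higher, beside 0.836% of all genes shared and higher. These were Acacb (0.73 ± 0.18 units), Me1 (0.62 ± 0.19 units) and Pklr of glycolysis (0.52 ± 0.19 units). The mean of the 22 genes, diet-adjusted, was -0.10 to 0.68 on the 5 arrays and -0.38 to 0.56 on the others. By that mean 31 other strains reached the lowest of the 5, so the list as a whole was not set apart.

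**Figure D4:**
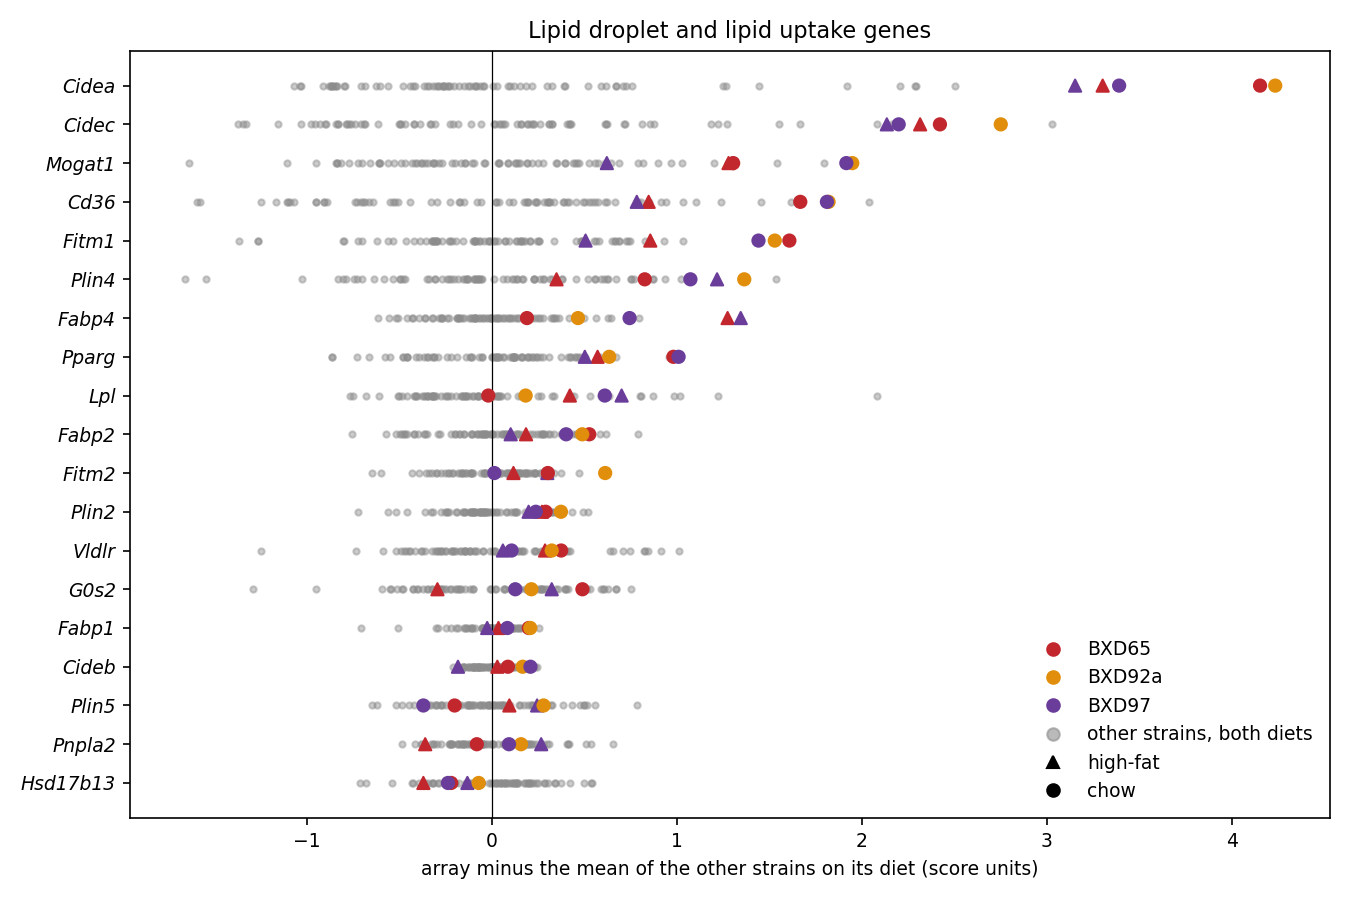
Every measured gene of the lipid droplet and uptake list, with each array's level minus the mean of the other strains on its diet in score units on the horizontal axis and genes ordered by the fitted difference. The coloured symbols of the 3 strains are right of 0 on all 5 arrays for the upper genes, from Cidea to Pparg, and mingle with the grey points of the other strains for the lower ones such as Cideb and Pnpla2.

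Promoter sequence is shown for Cidec, Aqp7 and S100a11, rare genes with a fat cell role or, for S100a11, the next largest difference, because they lie on different chromosomes from each other and from Cidea and were high together. The windows, from RefSeq on GRCm38.p6, run from 250 bases before to 50 after a start, and capitals mark AGGTCA, a core motif read by many nuclear receptors, or TGACCT, the same motif on the other strand. Cidec is at chr6:113435711-113436010 on the minus strand, Aqp7 at chr4:41047913-41048212 on the minus strand, and S100a11 at chr3:93520246-93520545 on the plus strand.
Cidec: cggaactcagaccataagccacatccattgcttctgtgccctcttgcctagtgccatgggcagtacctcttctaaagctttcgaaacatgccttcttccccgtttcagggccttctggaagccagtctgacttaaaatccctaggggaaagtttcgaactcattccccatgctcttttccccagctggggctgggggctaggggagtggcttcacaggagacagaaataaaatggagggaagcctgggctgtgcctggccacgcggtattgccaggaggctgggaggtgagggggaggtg
Aqp7: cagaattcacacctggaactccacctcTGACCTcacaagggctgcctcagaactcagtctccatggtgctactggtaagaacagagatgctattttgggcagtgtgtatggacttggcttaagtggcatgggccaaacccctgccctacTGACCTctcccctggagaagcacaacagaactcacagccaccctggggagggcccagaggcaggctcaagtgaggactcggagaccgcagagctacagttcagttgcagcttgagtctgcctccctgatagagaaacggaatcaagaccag
S100a11: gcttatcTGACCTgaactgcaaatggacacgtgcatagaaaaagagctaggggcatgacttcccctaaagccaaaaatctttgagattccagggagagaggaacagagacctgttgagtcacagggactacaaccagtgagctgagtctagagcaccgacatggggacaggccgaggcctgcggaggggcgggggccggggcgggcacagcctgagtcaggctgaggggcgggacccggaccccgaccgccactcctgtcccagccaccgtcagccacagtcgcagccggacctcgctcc
The Aqp7 window, of 2 listed starts the one with more matches, holds 2 matches, the S100a11 window 1, and neither of the 2 Cidec starts holds any. Of all 32851 promoter windows, 16.3% hold the motif on either strand. Windows existed for 18 of the 23 exclusive and rare genes, and 4 of these held a match in any listed start, beside 18.1% of all genes. A match is a string of letters and says nothing of a bound factor.

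Genes that followed Cidea were then looked for in the arrays of the 39 other strains. Over the 76 other arrays, diet-adjusted, B430212C06Rik had the highest Pearson correlation with Cidea of all genes, 0.79 (Spearman 0.64), and Mogat1 the next, 0.75 (Spearman 0.71). Limk1 stood at 0.65 (rank 6), Cidec at 0.63 (rank 7), Tceal8 at 0.63 (rank 9), S100a11 at 0.61 (rank 11), Aqp7 at 0.59 (rank 16) and Anxa5 at 0.55 (rank 26). Of the 22 exclusive and rare genes besides Cidea, 7 correlated at 0.5 or more, beside 58 genes, 0.266%, over all. At 0.3 or more stood 14 of the 22, beside 735 of all genes. The 22 genes, like Cidea, were picked for levels that few other strains reach, so all genes are no like background. The 7 include B430212C06Rik, whose range overlaps that of Cidea. Arsb correlated at 0.27 (Spearman 0.36, rank 1035), Stab2 at 0.11 (Spearman 0.05) and Prrx1 at 0.02 (Spearman 0.02). Without the 2 arrays farthest from the median, BXD44 on chow and BXD96 on the high-fat diet, the values were 0.74 for B430212C06Rik, 0.71 for Mogat1 and 0.58 for Cidec. Within diets Cidec correlated with Cidea at 0.74 over the 38 high-fat and 0.57 over the 38 chow arrays, and Mogat1 at 0.81 and 0.72. The 2 arrays of a strain share that strain, so these correlations are a description.

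**Figure D5:**
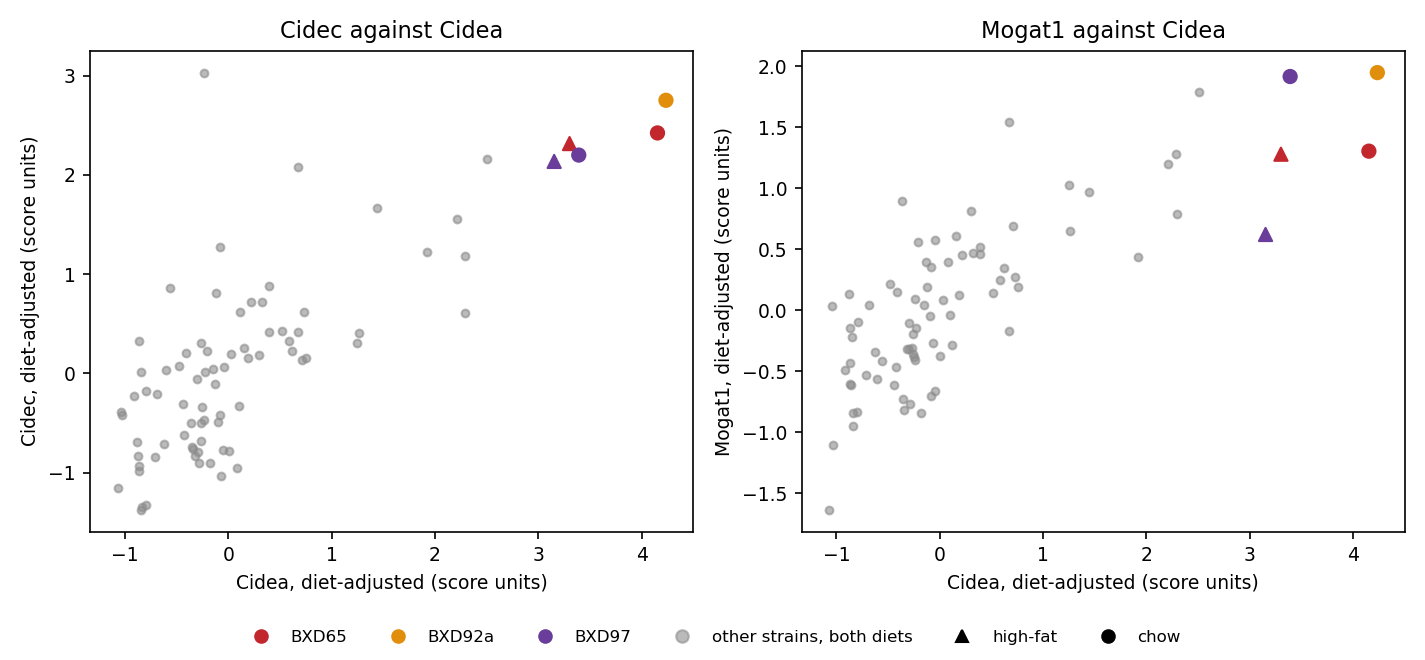
Cidec (left) and Mogat1 (right) on the vertical axes against Cidea on the horizontal axes, each as an array's level minus the mean of the other strains on its diet in score units; coloured symbols are the 5 arrays of the 3 strains and grey points the 76 others. Both genes are higher where Cidea is higher among the grey points, at Pearson correlations of 0.63 and 0.75, and the 3 strains lie at the far right.

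Several sex-biased liver genes were shared. Of 20 male-biased genes measured, 3 were shared and lower, beside 0.271% of all genes, and the list's median difference was -0.23 units. The organic anion transporter Slco1a1 stood at 9.72 in BXD65 and 11.10 in BXD97 on the high-fat diet, and 11.07 in BXD65, 10.04 in BXD92a and 12.12 in BXD97 on chow, with the other strains between 7.70 and 13.06 (median 12.05) on the high-fat diet and between 8.88 and 13.20 (median 12.71) on chow (difference -1.42 ± 0.48 units), and Selenbp2 and the oxysterol hydroxylase Cyp7b1 differed by -0.93 ± 0.36 and -0.73 ± 0.30 units. Hsd3b5, a steroid dehydrogenase of male liver, was not shared: it stood at 7.20 in BXD65 and 9.92 in BXD97 on the high-fat diet, and 7.57 in BXD65, 6.70 in BXD92a and 11.09 in BXD97 on chow, against medians of 10.97 on the high-fat diet and 11.46 on chow in the other strains. BXD65 and BXD92a were thus far below those medians. BXD97 was below the median on the high-fat diet and near it on chow. Of 18 female-biased genes, 3 were shared and higher and 3 shared and lower. Cyp2b9 stood at 13.28 in BXD65 and 13.33 in BXD97 on the high-fat diet, and 12.47 in BXD65, 13.01 in BXD92a and 11.54 in BXD97 on chow, with the other strains between 7.15 and 14.54 (median 12.37) on the high-fat diet and between 6.55 and 14.21 (median 8.33) on chow (difference 2.53 ± 0.94 units), and its neighbour Cyp2b13 differed by 1.42 ± 0.46 units; the pair are closely related and may share probes. Cyp17a1 of steroid synthesis (-0.56 ± 0.56 units) went the other way.

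The remaining lists are read against the shares over all genes, 1.11% shared, 0.836% higher and 0.271% lower. Of 24 glutathione and NRF2 target genes, 5 were shared and higher, the glutathione transferases Gstm3 (0.84 ± 0.20 units), Gstm2 (0.61 ± 0.13 units) and Gstt3 (0.58 ± 0.17 units) with the quinone reductase Nqo1 (0.61 ± 0.18 units) and the exporter Abcc4 (0.55 ± 0.12 units). Of 25 cytochromes P450 of drug metabolism, 4 were higher, among them Cyp2c38 (0.92 ± 0.41 units), and 2 lower, among them Cyp3a13 (-0.97 ± 0.38 units). Acute phase genes, made in inflammation, had 3 of 25 shared and higher, Orm3 (1.30 ± 0.45 units), Lcn2 (1.02 ± 0.65 units) and Orm2 (0.75 ± 0.48 units), with a list median of 0.02 units. Complement and coagulation genes had 2 of 31 shared and lower, the terminal complement genes Hc (-0.92 ± 0.26 units) and C8b (-0.70 ± 0.19 units). Lists with a single shared gene cannot be told from those shares: in fatty acid oxidation 1 of 28 was shared (Acot2, 0.57 ± 0.28 units), in the cell cycle 1 of 25 (Pttg1, 0.74 ± 0.36 units) and in the major histocompatibility complex 1 of 25 (H2-Ea, -1.36 ± 0.81 units). 0 were shared of 27 interferon response, 22 endoplasmic reticulum stress, 25 cholesterol synthesis and 17 circadian genes, whose median differences lay between -0.03 and 0.06 units. Of the marker lists beyond adipocyte and endothelial cells, 1 of 12 stellate cell and matrix genes was shared, Lrat (0.51 ± 0.12 units). Of 9 cholangiocyte markers 1 was shared, Spp1 (1.03 ± 0.32 units). At any size 9 of the 12 and 4 of the 9 were higher, with list medians of 0.08 and -0.005 units. These single shared genes too cannot be told from the shares over all genes. No markers of macrophages, B cells, T cells, acinar cells, muscle and erythroid cells were shared.

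The shared genes were set against the parents to see whose level the 3 strains had. In limma's parental test 520 of 21765 genes (2.39%) differed between C57BL/6J and DBA/2J, and of the 241 shared genes 81 did (33.6%), 59 with the 3 strains nearer C57BL/6J and 22 nearer DBA/2J. A shared gene has to vary between strains by its definition, so this share has no like background. Without the 2 arrays with acinar transcripts, of which one is the DBA/2J chow array, 58 shared genes passed (24.1%), and 297 of all genes (1.36%). With array weights 99 shared genes (41.1%) and 1064 of all genes (4.89%) passed. Of the 23 exclusive and rare genes only Arsb did.

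Ctse, the aspartic protease cathepsin E, had the largest difference of all shared genes, 4.08 ± 0.94 units, and was reached by 5 other strains (BXD44, BXD51, BXD83, BXD85, BXD98). Its levels were 13.33 in BXD65 and 13.17 in BXD97 on the high-fat diet, and 13.54 in BXD65, 13.36 in BXD92a and 13.12 in BXD97 on chow. The parents had 8.03 and 7.73 in C57BL/6J, against 11.92 and 11.64 in DBA/2J on the high-fat diet and chow in that order (C57BL/6J minus DBA/2J -3.90 ± 0.32, limma adjusted p = 1.96e-12). The 3 strains therefore lay above the higher parent, DBA/2J, by over 1 unit. H2-Ea, the class II chain that C57BL/6J lacks through a deletion, was at 6.46 to 6.85 in the 3 strains, as in C57BL/6J (6.71 and 6.50 in C57BL/6J, against 9.80 and 9.92 in DBA/2J). Hc, complement factor C5, which DBA/2J carries as a null allele, was at 12.14 to 12.61 in the 3 strains, against medians of 13.65 on the high-fat diet and 13.59 on chow in the others; the parents had 13.68 and 13.72 in C57BL/6J, against 13.23 and 12.84 in DBA/2J. Lcn13, a lipocalin, was at 11.13 to 11.50 in the 3 strains, between the parents (8.22 and 9.72 in C57BL/6J, against 13.68 and 13.69 in DBA/2J). Each of these passed the parental test in limma, with adjusted p = 1.36e-11 for H2-Ea, 0.000516 for Hc and 1.16e-05 for Lcn13.

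The other shared genes with the largest parental differences were near C57BL/6J in most cases. C530030P08Rik lay at 11.22 to 11.74 in the 3 strains (C57BL/6J minus DBA/2J 3.64 ± 0.16, limma adjusted p = 5.55e-22) and E430024C06Rik at 7.83 to 9.49 (C57BL/6J minus DBA/2J 3.07 ± 0.50, limma adjusted p = 4.89e-05), both at the higher C57BL/6J level. Trim12 (C57BL/6J minus DBA/2J 2.68 ± 0.30, limma adjusted p = 1.8e-08), of the tripartite motif family, and Cyp2c38 (C57BL/6J minus DBA/2J 2.67 ± 0.52, limma adjusted p = 0.0008) were likewise high. Rassf4, a Ras association domain gene, lay at 8.29 to 8.71 in the 3 strains and was low in C57BL/6J (C57BL/6J minus DBA/2J -3.52 ± 0.33, limma adjusted p = 1.73e-10), as was EG665955 (C57BL/6J minus DBA/2J -3.84 ± 0.30, limma adjusted p = 9.62e-13). Adh6-ps1, an alcohol dehydrogenase pseudogene, lay at 9.61 to 10.65 in the 3 strains, nearer C57BL/6J (C57BL/6J minus DBA/2J 3.37 ± 0.38, limma adjusted p = 1.8e-08).

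Of 20 genes with 2 clear levels named in earlier work on these strains, 10 were shared, 5 higher and 5 lower, beside 1.11% of all genes shared, 0.836% higher and 0.271% lower. These genes were named because they vary between strains, so the count is no independent evidence. Beside Ctse, Lcn13, H2-Ea, Hc and Rassf4 these were Ocel1 (-0.90 ± 0.24 units), Pttg1 (0.74 ± 0.36 units), the splicing factor Snrnp25 (-0.68 ± 0.34 units), Stab2 (0.56 ± 0.30 units) and Corin (0.50 ± 0.40 units). Corin, the protease of atrial natriuretic peptide, was at the DBA/2J level, 10.18 to 10.55 in the 3 strains, while the parents had 7.79 and 7.36 in C57BL/6J, against 10.25 and 10.22 in DBA/2J. The other 10 differed by under 0.5 units: Dhtkd1 (-0.43), Cpamd8 (0.42), Nnt (-0.40), Sfi1 (-0.37), Abca3 (-0.32), Glo1 (-0.25), Cox7a2l (0.24), Alad (0.23), D2hgdh (0.22) and Bckdhb (-0.10). Nnt, the mitochondrial transhydrogenase that carries a deletion in C57BL/6J, was at 10.16 to 10.49 in the 3 strains, while the parents had 10.24 and 9.89 in C57BL/6J, against 11.01 and 10.98 in DBA/2J. Bckdhb, a subunit of branched-chain ketoacid dehydrogenase, split them: it was at 12.04 and 12.03 in BXD65 and 12.11 in BXD92a, and at 12.92 and 12.64 in BXD97; the parents had 11.94 and 11.86 in C57BL/6J, against 12.84 and 12.69 in DBA/2J.

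Shared genes lay on every autosome and on X, from 3 on chromosome 16 to 22 on chromosome 1, and 22 of the exclusive and rare genes, each at a RefSeq gene of its own, on 14 chromosomes. Of the 228 shared genes with a place in RefSeq, 25 (11%) had another shared gene as their next measured neighbour, beside 2.06% of genes that were not shared. The 13 neighbouring pairs went the same way in 12. Several are gene families whose members may share probes, such as Gstm3 with Gstm2, Orm3 with Orm2, Cml5 with Cml4 and Cyp2b13 with Cyp2b9. The ranges of Cidea and B430212C06Rik overlap. Other pairs are of unlike genes, such as Cidea with Tubb6, Airn with Mas1, and Gbe1 with Robo1. The pairs AI607873 with Ifi204, Olfr1033 with Olfr1034 and Cml5 with Cml4 also differed between the parents by over 1 unit in both genes. In the 1 pair that went opposite ways, Cyp39a1 of bile acid synthesis was lower (-1.29 ± 0.43 units) and Rcan2 higher (0.68 ± 0.19 units).

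Differences among the 3 strains were counted where they repeated on both diets. BXD97 differed from BXD65 by at least 0.5 units the same way on both diets in 200 genes (0.919%), 124 higher and 76 lower in BXD97. Among the 666 pairs of BXD strains with both diets this was number 64 counted from the fewest; 662 other pairs had 120 to 1113 with a median of 306. Hsd3b5 had 9.92 and 11.09 in BXD97, against 7.20 and 7.57 in BXD65, on the high-fat diet and chow in that order, as for the genes that follow. The metallothionein Mt2 had 13.86 and 14.12 in BXD97, against 11.93 and 10.45 in BXD65, and Mt1 12.66 and 12.45 in BXD97, against 10.79 and 10.10 in BXD65, so the metal-binding pair was low in BXD65. Cyp7a1, the rate-limiting enzyme of bile acid synthesis, had 12.88 and 11.81 in BXD97, against 10.84 and 9.90 in BXD65. Fasn, the fatty acid synthase, ran the other way, with 10.96 and 11.29 in BXD97, against 13.29 and 12.76 in BXD65, and Cyp2a22 had 7.78 and 7.30 in BXD97, against 10.40 and 9.83 in BXD65. Higher in BXD97 were also the male-biased Cyp4a12a (13.82 and 14.24 in BXD97, against 11.78 and 12.39 in BXD65), Mrap2 (8.52 and 8.37 in BXD97, against 6.98 and 6.83 in BXD65), Ear11 (8.33 and 7.58 in BXD97, against 6.08 and 6.08 in BXD65) and Clec2h (9.02 and 10.22 in BXD97, against 7.55 and 7.26 in BXD65).

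BXD92a had only a chow array, so its differences rest on single values. It stood apart from both BXD65 and BXD97 the same way by at least 0.5 units in 129 genes (0.593%), 84 higher and 45 lower. On chow alone BXD92a and BXD65 differed by 0.5 units in 500 genes, against 1383 between BXD92a and BXD97 and 1552 between BXD97 and BXD65; 738 other pairs had 481 to 4228 with a median of 1342. Gm129, a clock repressor, had 9.02 in BXD92a, against 7.14 in BXD65 and 7.07 in BXD97, and Rgs16, a rhythmic regulator of G protein signals, had 12.10 in BXD92a, against 10.72 in BXD65 and 10.16 in BXD97. Lpin1, a phosphatidate phosphatase, had 11.36 in BXD92a, against 10.09 in BXD65 and 9.68 in BXD97, and the transcription factor Zbtb16 10.91 in BXD92a, against 8.86 in BXD65 and 9.37 in BXD97. Nr4a1, an early response receptor, was lower, with 7.71 in BXD92a, against 9.59 in BXD65 and 8.98 in BXD97. The drug-inducible Cyp2b10 had 10.10 in BXD92a, against 8.90 in BXD65 and 8.44 in BXD97, and Slco1a1 10.04 in BXD92a, against 11.07 in BXD65 and 12.12 in BXD97. LOC433762, Slc8a1 and Cyp2a22 were also higher in BXD92a, by at least 1.18, 1.14 and 1.14 units.

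The response to diet was tested as a difference within each strain, which removes the strain's level. It comes from the same arrays on which the strains were picked, so its p-values may not be free of that choice. The difference between high-fat and chow arrays of BXD65 and BXD97 was set against that of 37 other strains, and 0 of 21765 genes (0%) passed an adjusted p of 0.05 in limma, with 1015 genes (4.66%) at an unadjusted p under 0.05. On simulated data this comparison recovered 34% of added differences of 0.5 units and 94% of 1 unit. Cidea was higher on the high-fat diet by 0.83 units in the 2 strains and 1.43 in the others, a difference of -0.59 ± 0.74 (SE; adjusted p = 0.999 in limma, 2 against 37 strains). For Aqp7 the response was 1.11 against 0.44 units, a difference of 0.68 ± 0.23 (adjusted p = 0.827 in limma). A response that misses the threshold may still differ.

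Of the 10 smallest p-values, Tm4sf1, a tetraspanin-like membrane protein, came nearest to the threshold, with a response of -0.66 in BXD65 and -0.54 in BXD97, against -0.21 to 0.53 (median 0.195) in the others (limma adjusted p = 0.0509). Both strains lay outside the range of the others. Tfrc, the transferrin receptor, had 1.08 in BXD65 and 1.55 in BXD97, against -0.87 to 0.98 (median -0.018) in the others (limma adjusted p = 0.183). The repressor Bcl6 had -1.91 in BXD65 and -1.16 in BXD97, against -1.50 to 0.85 (median -0.002) in the others (limma adjusted p = 0.183). Hamp, the iron hormone hepcidin, had -0.97 in BXD65 and -6.20 in BXD97, against -2.15 to 2.28 (median -0.686) in the others (limma adjusted p = 0.309), and only BXD97 lay outside that range. S100a9, a neutrophil protein, had 0.26 in BXD65 and 2.46 in BXD97, against -0.82 to 1.01 (median 0.041) in the others (limma adjusted p = 0.183). Mier2, Myef2, Pfkl, Snord116 and Pcdh9 completed the list, with differences from -0.87 units for Myef2 to 1.17 for Snord116 and limma adjusted p from 0.183 to 0.309.

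Set alone against the 37 strains, BXD97 differed in its diet response in 18 genes in limma, with a smallest adjusted p of 6.43e-05, and BXD65 in 0 (863 genes for BXD65 at an unadjusted p under 0.05). This assumes that 1 strain varies like the others, and the difference between BXD97 and BXD65 was not tested. Hamp stood at 8.32 on the high-fat and 14.52 on the chow array of BXD97, and Hamp2 at 6.36 and 11.45. The neutrophil genes S100a8 (2.60 units), S100a9 (2.46 units), Ngp (2.74 units), Ltf (1.94 units) and Prtn3 (1.25 units) were higher on that high-fat array, as was Slc4a1 of red cells (0.94 units). Erythroid markers were high on the same array, with Hbb-b1 at 13.86 against 12.19 on chow and Hba-a1 at 12.78 against 11.17; their part in these differences was not tested. Cidea, B430212C06Rik and Arsb remained exclusive without this array, and 23 of the 23 exclusive and rare genes stayed within the limit of 4 strains. Leaving it out keeps the least extreme level of BXD65, BXD92a and BXD97 in place or moves it away from the other strains. A gene could then be lost only through the size limit. Whether the genes depend on this array can therefore not be decided from that outcome.

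A second set of 3 alike strains, BXD73, BXD80 and BXD103 with 6 arrays, was run through the same rule with plain means. It had 140 shared genes, 60 higher and 80 lower, with 0 exclusive and 4 rare ones. BXD65, BXD92a and BXD97, with 5 arrays, had 240 shared, 181 higher and 59 lower, with 3 exclusive and 20 rare. A set with more arrays has more chances to fail the rule, so the counts are not on equal terms and their difference was not tested.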

How the data were processed

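The members, gene lists and naming rules were chosen with earlier results of these data known. Per the submitters' processing notes the arrays were processed with Affymetrix Expression Console; how arrays were summarised and scaled, and the build, is not stated in the labels or headers. Values were deposited as scores for 35556 probe sets per array, each array with mean 8 and SD 2; the 2 deposited tables differed in 0 cells. Array medians lay between 7.66 and 7.81, and the number of arrays, not a count depth, limits precision. In the table with annotation the column headed BXD92 equals the BXD92a sample's column in every cell and was taken as that sample.

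Of the probe sets 25096 had 1 symbol; the one with the highest mean per symbol gave 21765 genes, of which 17961 matched RefSeq (GRCm38.p6) by symbol, 2757 by synonym and 1047 not at all. Differences and standard errors came from limma 3.58.1 in R 4.3.3 with diet as covariate and strain as a random block (correlation 0.19). The design was written for score or log2 values. The parental and diet-response tests were limma on the 78 paired arrays of 39 strains, Benjamini-Hochberg over all genes at 0.05; pairing comes from the strain names. The diet-response p-values rest on the spread of responses between strains. Those of the parental test rest on the spread left after the strain and diet terms. With 1 pool for each strain and diet, spread between pools of a strain was not measured. On simulated data the parental test recovered 44% of differences of 0.5 units and 90% of 1 unit. Genes named were the exclusive ones (up to 15 a direction), the 10 largest rare differences a direction, up to 4 members per list, the 10 largest parental differences, the 10 largest differences within the set and the 10 smallest diet-response p, with the 20 two-level genes in full. Lists held 505 entries, 488 measured; some genes stand on more than 1 list, and 1 shared gene is not reported here. Alternatives were centring, probe set choice, a filter on dim genes, size limits, left-out arrays, array weights and no block.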

Additional observations from a re-analysis of the deposited data

How the results depend on the processing

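Counts of exclusive genes (3) and rare genes (20) rest on how many arrays must agree. On chow arrays alone there were 16 exclusive and 99 rare genes, and on high-fat arrays alone 57 and 132, where fewer arrays have to be reached. A size limit of 0.25 units gave 31 rare genes and one of 1 unit gave 7; allowing at most 2 other strains gave 9 and at most 8 gave 58. Leaving out each of the 5 arrays in turn gave 3 to 6 exclusive and 23 to 38 rare genes; without the BXD97 chow array they were 6 and 35, and without the BXD97 high-fat array 4 and 38. Cidea was exclusive under every alternative run, B430212C06Rik under all but the filter on dim genes, which removed it, and Arsb under all but the size limit of 1 unit. Several alternatives could hardly give another outcome. With 1 of the 5 arrays left out, or 1 diet alone, an exclusive gene can be lost only through the size limit. A lower size limit removes no gene. The count of genes with a different diet response (0) was 2 with the probe set of highest variance per gene (Pcdh9 and Tm4sf1), 1 without the dimmest tercile (Tm4sf1), and 0 to 18 with BXD97 or BXD65 left out, where 18 was that of BXD97 alone. With no replicate block, fitted on all 81 arrays in place of the 78 paired ones, it was 0, with 679 genes at an unadjusted p under 0.05. Genes that differed between BXD97 and BXD65 (200) numbered 1963 at 0.25 units and 19 at 1 unit. Shared genes past the parental test (81) ranged from 58 to 99, and all genes past it (520) were 297 without the 2 arrays with acinar transcripts and 1064 with array weights. The differences of the 23 exclusive and rare genes took 342 values under the alternatives, with 0 reversed and 1 that moved by more than the spread between arrays, that of Tceal8 on the high-fat arrays alone (0.92 units). These genes were picked with all 5 arrays on one side of 0, so a reversal could hardly occur. Except where fewer arrays or another limit sets a count, the cause was not tested. The design had 1 pool for each strain and diet and 2 strains in the diet response, so differences near 0.5 units lie at its limit, and dim genes such as B430212C06Rik lie in the range of the negative controls.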
